A study of Mus musculus with 12 samples.

Results

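The comparison described here sets whole blood taken 1 h after the last dose of CPI-0209 against whole blood of vehicle mice, 3 libraries against 3, or 6 of the 12 libraries of the series. All mice were CB17-SCID animals, an immunodeficient strain that makes few mature T or B cells, and all carried a xenograft of the human bladder carcinoma line HT1376. Treated mice had received CPI-0209 at 35 mpk (mg per kg) by mouth once daily for 11 days, so the 1 h libraries follow repeated dosing rather than a single dose, and vehicle mice had received vehicle. The other 6 libraries of the series, 3 from 6 h and 3 from 24 h after the last dose, serve here to estimate the spread of each gene and to show what the genes called at 1 h did later. No label gives the hour at which vehicle mice were bled, so the drug and the hour of bleeding cannot be told apart in any gene below. Nor do the labels say whether each library came from a separate mouse, so p-values measure the spread between these libraries only.

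CPI-0209 (tulmimetostat) inhibits EZH2 and its relative EZH1, the catalytic subunits of Polycomb repressive complex 2 (PRC2). PRC2 adds methyl groups to lysine 27 of histone H3, a mark found at silenced genes. Such marks are usually diluted over cell divisions, while hormone receptors such as the glucocorticoid receptor act on their target genes within minutes to hours. Whole blood RNA comes from several cell types at once, among them reticulocytes, the youngest red cells, which still hold RNA, and neutrophils, monocytes, platelets and NK cells.

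Library totals were 7701833, 8530531 and 7653152 counts in vehicle and 6739993, 8781149 and 8535356 at 1 h, and the scaling factors of these 6 libraries lay between 1.00 and 1.12. Levels are given as counts scaled to a common library size after TMM normalization (CPM). Markers of red cells, neutrophils, monocytes, platelets and NK cells were present in all 6 libraries. Of 15 B cell markers 3 had enough counts to be tested, and Ms4a1 had 0 counts in all 6. Of 18 T cell markers 11 had enough counts to be tested. Together the 18 held 86.0, 83.4 and 63.0 CPM in vehicle and 105, 89.7 and 78.1 at 1 h. Cd3e, a T cell receptor subunit, had 9 counts over the vehicle libraries and 6 over the 1 h libraries. The mean log2 CPM of 41 erythroid and reticulocyte markers was 7.28, 7.37 and 7.60 in vehicle and 7.93, 8.04 and 7.83 at 1 h, with no overlap between the groups. Library 1 h replicate 1 stood apart in transcripts of hepatocytes: 12 hepatocyte genes held 421 counts in it (57.3 CPM), of which Alb, serum albumin, had 192 and Apob, the main apolipoprotein of the liver, had 121. The other 11 libraries of the series held 2.21 CPM or less, and none of the 12 genes passed the filter on low counts.

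Against vehicle, 26 of 13384 tested genes were called at 1 h (0.194%, edgeR quasi-likelihood test, Benjamini-Hochberg adjusted p under 0.05). There were 24 called higher (0.179% of the tested genes) and 2 called lower (0.0149%). The balance depended on the setting: with library totals in place of TMM 65 were higher and 0 lower, Hrh2 and Epc1 losing their call (adjusted p = 0.065 for both), and with the level of the erythroid markers as a covariate 145 were higher and 212 lower. At an unadjusted p under 0.05, 4.28% of tested genes were higher and 2.7% lower. Of the rises, 15 exceeded 2 on the log2 scale. In all 26 the groups did not overlap. That alone is no rare event here, since over all tested genes the 3 libraries at 1 h lay above all 3 of vehicle in 8.92% and below in 8.44%. Among all tested genes 6391 fold changes were positive and 6993 negative, with a median of -0.02. Fitted with only the 6 libraries compared, 204 of 12616 genes were called (1.62%), all 26 among them. The 24 h libraries enter the spread estimated over 12 libraries, and a fit without those 3 libraries called 244 genes.

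**Figure D1:**
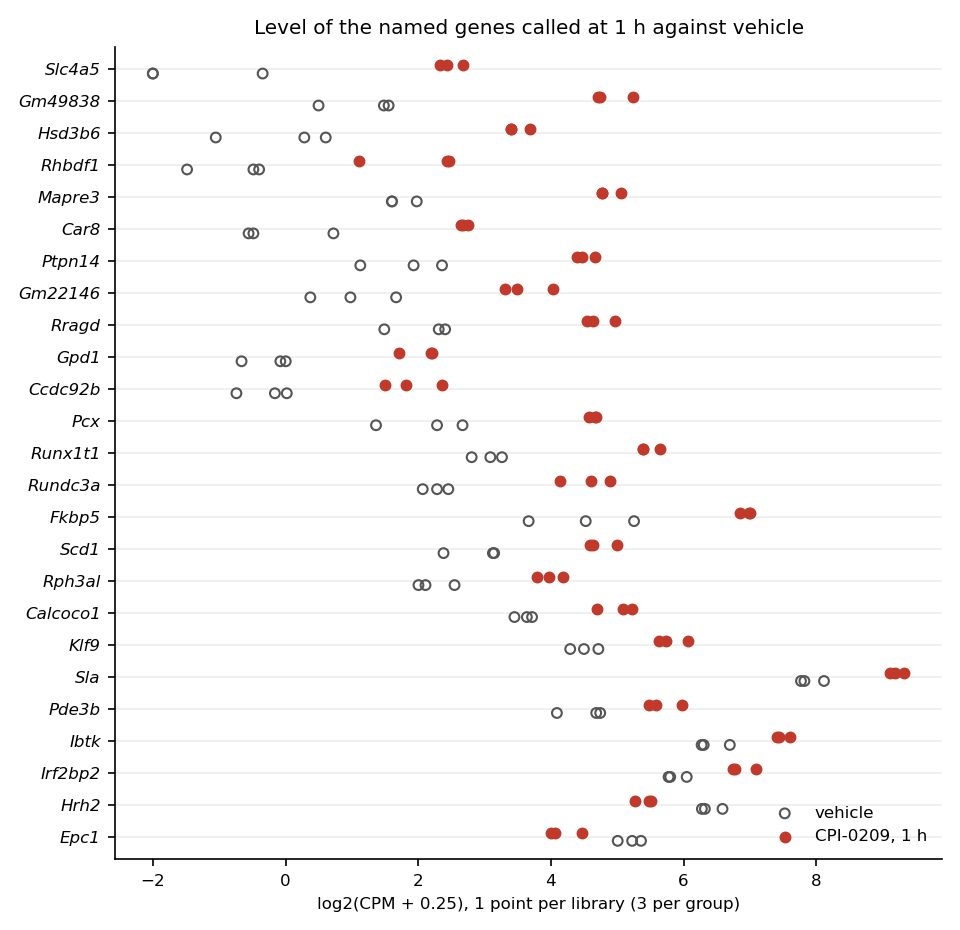
Level of each called gene named in the text in the 3 vehicle libraries (open circles) and the 3 libraries at 1 h (filled circles), on the log2 scale after adding 0.25 CPM, ordered by fold change. No gene has overlapping groups, and the 2 vehicle libraries of Slc4a5 with 0 counts sit at the left edge.

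**Figure D2:**
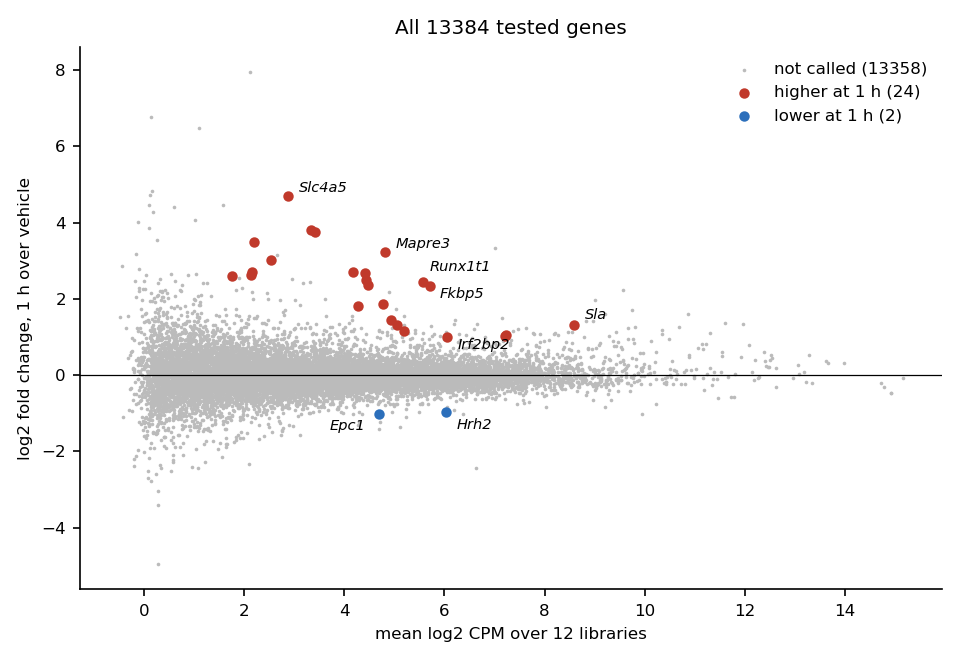
Log2 fold change of 1 h over vehicle against mean log2 CPM over the 12 libraries for the 13384 tested genes, with the 24 called higher and the 2 called lower coloured. The called genes lie at low to high expression, from Ccdc92b to Sla, and the largest called rise is that of Slc4a5 at 4.70.

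The most abundant of the called genes was Sla, which encodes an adaptor protein (SLAP) that dampens signalling from antigen and cytokine receptors in blood cells (ENSMUSG00000022372, chromosome 15, 66780819 to 66831829). Sla stood at 218, 226 and 278 CPM in vehicle and 583, 552 and 643 CPM at 1 h. Every 1 h library lay far above the highest vehicle library, and the log2 fold change was 1.30 (SE 0.16, adjusted p = 0.0032). The gene lies inside Tg on the opposite strand, and Tg itself had a log2 fold change of -0.02 (adjusted p = 1.00).

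Fkbp5, a cochaperone that lowers the affinity of the glucocorticoid receptor for its hormone and is itself switched on by that receptor, rose as well (ENSMUSG00000024222, chromosome 17, 28399094 to 28517527, minus strand). It was measured at 12.4, 22.8 and 37.9 CPM in vehicle and 127, 115 and 128 CPM at 1 h, a log2 fold change of 2.34 (SE 0.32, adjusted p = 0.0065). The vehicle libraries differed among themselves while those at 1 h lay close together, and the groups did not overlap. Inside Fkbp5 lie 3 tested genes with predicted names, none of which overlaps an annotated Fkbp5 exon. They are named here because they overlap a called gene. Gm49838, a sense intronic transcript (chromosome 17, 28424723 to 28426430), went from 1.16, 2.69 and 2.54 to 26.4, 25.9 and 37.6 CPM, 3.80 (SE 0.38, adjusted p = 0.00056). Gm22146, annotated on the opposite strand (28446500 to 28456457), went from 1.05, 1.72 and 2.93 to 11.03, 9.70 and 16.2 CPM, 2.70 (SE 0.44, adjusted p = 0.019). The third, Gm49839 (28457484 to 28461095), did not pass, with 1.28, 6.34 and 7.38 CPM in vehicle and 23.7, 16.5 and 41.5 at 1 h (2.45, adjusted p = 0.059). The libraries were made from total RNA and no source used here states the strand of counting, so reads of unspliced Fkbp5 RNA and reads of these 3 genes cannot be told apart.

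Klf9, a zinc finger transcription factor that responds to glucocorticoids and thyroid hormone, stood at 26.03, 22.4 and 19.3 CPM in vehicle and 53.2, 49.4 and 66.9 CPM at 1 h (ENSMUSG00000033863, chromosome 19, 23141226 to 23168134). Every 1 h library was above every vehicle library, and the log2 fold change was 1.32 (SE 0.18, adjusted p = 0.0066). Irf2bp2, a corepressor that binds the interferon regulatory factor IRF2 (ENSMUSG00000051495, chromosome 8, 126588296 to 126593986), had 55.4, 54.5 and 65.9 CPM in vehicle and 107, 109 and 136 at 1 h, 1.00 (SE 0.18, adjusted p = 0.039).

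Promoter windows from 250 bases before to 50 after the RefSeq start (GRCm38.p6) were at hand for 13 of the called genes, 16 windows in all. These windows held 3 to 40 CpG dinucleotides, with a median of 16.5, against a median of 20 and quartiles of 10 and 28 over the 12119 windows of tested genes. The windows of Fkbp5 (32 CpG) and Klf9 (28 CpG) are shown because both genes belong to the glucocorticoid list, and that of Hsd3b6 (3 CpG), described further below, because it holds the closest match to the receptor's palindrome among the called genes. CpG dinucleotides are in capitals.
Fkbp5, chr17:28486100-28486399, minus strand: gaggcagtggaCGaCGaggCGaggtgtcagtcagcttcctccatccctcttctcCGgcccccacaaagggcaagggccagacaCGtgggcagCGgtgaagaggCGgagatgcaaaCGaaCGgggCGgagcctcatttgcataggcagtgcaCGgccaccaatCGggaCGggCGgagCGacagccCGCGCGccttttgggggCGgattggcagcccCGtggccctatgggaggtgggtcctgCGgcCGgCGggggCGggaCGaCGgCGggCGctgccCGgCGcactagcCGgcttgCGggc
Klf9, chr19:23140976-23141275, plus strand: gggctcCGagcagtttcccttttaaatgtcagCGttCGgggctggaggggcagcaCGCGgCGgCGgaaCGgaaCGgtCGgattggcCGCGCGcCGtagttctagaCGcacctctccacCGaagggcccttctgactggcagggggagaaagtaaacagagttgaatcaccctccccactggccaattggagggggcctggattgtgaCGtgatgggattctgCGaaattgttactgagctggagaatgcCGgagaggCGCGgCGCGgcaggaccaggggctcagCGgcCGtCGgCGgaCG
Hsd3b6, chr3:98814394-98814693, minus strand: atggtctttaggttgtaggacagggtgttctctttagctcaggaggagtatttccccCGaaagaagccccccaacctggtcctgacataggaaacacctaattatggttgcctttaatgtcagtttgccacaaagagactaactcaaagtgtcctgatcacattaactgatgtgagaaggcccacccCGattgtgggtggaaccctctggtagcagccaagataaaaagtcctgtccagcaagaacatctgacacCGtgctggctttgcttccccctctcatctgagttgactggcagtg
The windows were searched on both strands for the glucocorticoid receptor palindrome (AGAACA, any 3 letters, then TGTTCT), where a match could miss 2 of the 12 fixed letters. Matches of at least 10 letters were found in 0.949% of all windows and in 2 of the 16 windows of called genes. Matching letters are in capitals.
Hsd3b6, 11 of 12 letters, first base at -234 from the start: AGgACAgggTGTTCT
Pcx, 10 of 12 letters, first base at 16 from the start: AGAACtttgTaTTCT
The single arm TGTTCT (or AGAACA on the other strand, both also counted inside a palindrome) was found in 4 of the 16 windows, against 13.1% of all windows. The windows of Fkbp5 and Klf9 held neither. Of 31 windows of 19 genes on the glucocorticoid list, 2 held at least 10 of the 12 letters and 7 a single arm. Both palindrome matches on that list lie at Sgk1, a kinase that did not pass (-0.41). A match is a stretch of letters and no measure of binding.

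The glucocorticoid-response list held 22 tested genes. Like the other lists it was written with earlier results of these data known. Its counts beside the shares over all genes are therefore a description and no test. Fkbp5 and Klf9 passed, 8 had an unadjusted p under 0.05 toward higher and 2 toward lower (4.28% and 2.7% over all genes), and the list's median was 0.58 against -0.02 over all genes. Per1, a clock gene with glucocorticoid response elements, did not pass over the 12 libraries: it had 13.02, 16.9 and 18.2 CPM in vehicle and 70.9, 61.5 and 86.8 at 1 h, a log2 fold change of 2.19 (adjusted p = 0.12). With only the 6 libraries compared its adjusted p was 0.00053. Ddit4, an inhibitor of mTORC1, had 7.21, 7.63 and 12.2 CPM in vehicle and 21.5, 16.1 and 22.6 at 1 h (1.16, adjusted p = 0.086). Nfkbia, which encodes the NF-kappaB inhibitor IkBa, had 34.98, 42.9 and 58.5 CPM in vehicle and 75.98, 75.3 and 110.4 at 1 h (0.94, adjusted p = 0.21). For these 3 genes the 1 h libraries lay above all vehicle libraries, which alone was so for 8.92% of tested genes. Tsc22d3, known as GILZ, had 164, 212 and 279.6 CPM in vehicle and 326, 281 and 358 at 1 h (0.56, adjusted p = 0.43), while Sgk1 (-0.41), Cebpd (-0.40) and Anxa1 (-0.50) had values below 0 and did not pass. The receptor gene Nr3c1 had -0.07 (adjusted p = 0.97). Among 15 genes of the receptor and its cochaperones Fkbp5 passed higher, and over all tested genes 0.179% did. Hsp90ab1, a chaperone that holds the receptor ready for hormone, had 62.9, 41.1 and 39.6 CPM in vehicle and 105, 97.98 and 102 at 1 h (1.09, adjusted p = 0.069).

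In 7 of the 22 glucocorticoid-response genes all 3 libraries at 1 h lay above all 9 other libraries of the series, which was so for 0.882% of tested genes: Fkbp5, Klf9, Ddit4, Per1, Nfkbia, Tsc22d3 and Errfi1, a feedback inhibitor of EGF receptor signalling. Fkbp5 had 18.1, 28.7 and 36.4 CPM at 6 h and 33.3, 34.7 and 29.4 at 24 h, and Klf9 had 26.6, 28.96 and 28.3 and 22.2, 24.4 and 30.005. Per1 stood at 7.17, 5.82 and 23.9 CPM at 6 h and 12.8, 5.96 and 28.1 at 24 h. All of these values lay below every 1 h library of the same gene. Tested directly, 6 of the 22 genes were called lower at 6 h than at 1 h, against 0.359% of all tested genes: Fkbp5 (-2.15, SE 0.32, adjusted p = 0.021), Klf9 (-1.02, adjusted p = 0.034), Ddit4 (-1.25, adjusted p = 0.049), Per1 (-2.57, adjusted p = 0.0498), Tsc22d3 (-0.98, adjusted p = 0.048) and Irs2, an insulin receptor substrate (-0.90, adjusted p = 0.049). The 1 h libraries enter both this contrast and the one with vehicle. Because earlier results were known when the list was written, its counts of 7 and 6 beside all genes are no test of the list. The count of 6 depended on single libraries, as did the count over all genes, while the list's median, -0.81 with all 12 libraries, lay between -0.66 and -0.85 with single libraries left out. Removing 1 h replicate 1, 1 h replicate 3 or 6 h replicate 1 left 0 genes of the list (8, 4 and 4 genes in all were then called lower), and removing 1 h replicate 2 or 6 h replicate 2 left 1 (11 and 12 in all). Removing vehicle replicate 2 or 6 h replicate 3 left 2 genes, vehicle replicate 1 or 24 h replicate 2 left 3, vehicle replicate 3 left 6, and either of the other 24 h libraries left 8 (423 without replicate 1 and 373 without replicate 3 in all). The erythroid markers moved with this contrast, with mean log2 CPM of 8.83, 8.74 and 8.73 at 6 h, and with their level as a covariate 0 of the 22 genes and 1 of all tested genes were called lower, with a list median of -0.15. Their part in the result was not tested.

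**Figure D3:**
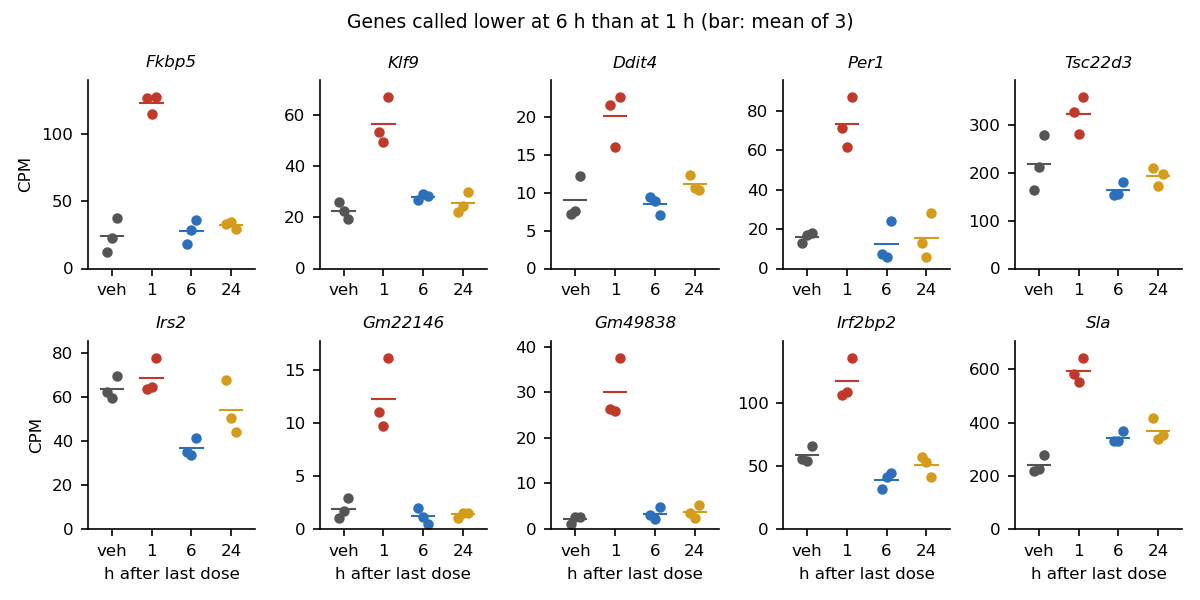
CPM in each of the 12 libraries, by group, for the 6 glucocorticoid-response genes and the 4 other genes called at 1 h that were called lower at 6 h than at 1 h, with the group mean as a bar. Fkbp5, Gm22146 and Gm49838 are near their vehicle level at 6 and 24 h, whereas Irs2, which was not called at 1 h against vehicle, is lowest at 6 h.

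Of the genes called at 1 h outside the glucocorticoid list, Sla, Irf2bp2, Gm49838 and Gm22146 were also called lower at 6 h than at 1 h. Irf2bp2 fell to 32.1, 41.3 and 44.5 CPM at 6 h (-1.58 against 1 h, adjusted p = 0.0032). Sla stood at 331, 332 and 367 CPM at 6 h (-0.79 against 1 h, adjusted p = 0.0498) and 419, 338 and 353 at 24 h, below all its 1 h values and above all its vehicle values. The log2 fold change of 6 h over 1 h was -3.15 for Gm49838 and -3.38 for Gm22146.

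Among transcriptional regulators Runx1t1 had the largest rise. It encodes ETO, a corepressor known as the fusion partner of RUNX1 in acute myeloid leukaemia (ENSMUSG00000006586, chromosome 4, 13743436 to 13893649). Runx1t1 had 8.25, 9.35 and 6.74 CPM in vehicle and 41.5, 41.6 and 49.97 at 1 h, 2.45 (SE 0.25, adjusted p = 0.00056), and vehicle and 1 h values were far apart relative to the spread within each group. Of the 6 other tested members of the RUNX and ETO families none passed. Cbfa2t3, the ETO relative of red cell progenitors, had 0.78 (adjusted p = 0.39) and Runx1 0.09 (adjusted p = 0.95). Calcoco1, a coiled-coil coactivator and autophagy receptor of the endoplasmic reticulum (ENSMUSG00000023055, chromosome 15, 102706777 to 102722178), rose from 12.2, 12.9 and 10.7 to 25.7, 37.3 and 33.9 CPM, 1.44 (SE 0.21, adjusted p = 0.008). Epc1, a scaffold subunit of the NuA4/TIP60 histone acetyltransferase, was 1 of the 2 genes called lower (ENSMUSG00000024240, chromosome 18, 6435951 to 6516108). It went from 40.8, 31.9 and 37.2 CPM to 16.5, 22.01 and 15.7 CPM, -1.02 (SE 0.19, adjusted p = 0.044). The other 17 members of that complex did not pass, with a median over the 18 of -0.05. Here as elsewhere in bulk blood, fewer cells of a type and less RNA per cell cannot be told apart.

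None of 11 PRC2 genes passed in edgeR (0 had an unadjusted p under 0.05, and DESeq2 called 0), and their median was 0.00. Ezh2, the main catalytic subunit and a target of the drug, had 306, 264 and 270.4 CPM in vehicle and 219, 225 and 194 at 1 h (-0.40, SE 0.36, adjusted p = 0.92). With the level of the erythroid markers as a covariate Ezh2 was called lower, at -1.07 (adjusted p = 0.0043). That fit called 212 genes lower, against 2 without the covariate. The marker level did not overlap between vehicle and 1 h, so the fit cannot well separate the group from that level. The vehicle and 1 h values of Ezh2 did not overlap, which alone was so for 8.44% of tested genes. Ezh1 had 47.999, 51.2 and 61.97 CPM and 40.98, 48.6 and 64.7 CPM (-0.06, adjusted p = 0.97), and its sign turned without vehicle replicate 3 (0.08) or 1 h replicate 1 (0.10). Eed, the subunit that reads the methyl mark, had 0.09 and Suz12, which holds the complex together, -0.33. Of 21 PRC1 genes 0 passed in edgeR or DESeq2 and 1 had an unadjusted p under 0.05 toward lower. Of 60 homeobox, GATA and T-box genes, many of them classic Polycomb targets, only Gata6 and Hoxb4 had enough counts to be tested and neither passed.

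Enzymes of lipid and glycerol metabolism were the next group. Scd1, the stearoyl-CoA desaturase that makes monounsaturated fatty acids (ENSMUSG00000037071, chromosome 19, 44394455 to 44407879), rose from 8.48, 8.60 and 4.96 to 31.7, 24.5 and 23.8 CPM, 1.85 (SE 0.24, adjusted p = 0.0047). Pcx, pyruvate carboxylase, which feeds the citric acid cycle, gluconeogenesis and fatty acid synthesis (ENSMUSG00000024892, chromosome 19, 4510472 to 4621752), rose from 2.32, 4.62 and 6.11 to 25.2, 23.5 and 25.3 CPM, 2.50 (SE 0.37, adjusted p = 0.01). The libraries at 1 h lay close to each other and above all of vehicle. Gpd1, the cytosolic glycerol-3-phosphate dehydrogenase (ENSMUSG00000023019, chromosome 15, 99717515 to 99725005), was scarce, with 0.697, 0.752 and 0.382 CPM in vehicle and 4.36, 4.33 and 3.02 at 1 h, 2.63 (SE 0.43, adjusted p = 0.019). These 3 were the members called among 34 genes of lipid and glycerol synthesis, whose median of 0.02 was close to that of all genes. Over all tested genes 0.179% were called higher. Elovl6 (0.56, adjusted p = 0.61) and Elovl5 (0.43, adjusted p = 0.74), which elongate fatty acids, did not pass.

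Pcx was also the member called among 21 genes of glycolysis and gluconeogenesis, of which G6pc3 had 1.12 (adjusted p = 0.68) and Pck2 0.61 (adjusted p = 0.71). Hsd3b6, a 3-beta-hydroxysteroid dehydrogenase best known from the adrenal gland (ENSMUSG00000027869, chromosome 3, 98805504 to 98814443), rose from 0.232, 0.967 and 1.27 to 10.3, 12.7 and 10.3 CPM, 3.74 (SE 0.62, adjusted p = 0.019). Hsd3b6 was the member called among 11 tested steroid dehydrogenases. Over all tested genes 0.179% were called higher. Hsd11b1, which regenerates active glucocorticoid, had -0.47 (adjusted p = 0.80). Adipocytes also make Scd1 and Gpd1. Of 14 adipocyte genes 6 were at 0 counts in all 6 libraries, Adipoq, Plin1 and Lep among them. The 6 tested had a median of -0.18 and 0 passed in edgeR or DESeq2, though 1 had an unadjusted p under 0.05: Pnpla2, a lipase made by many cell types, with 145, 141 and 169 CPM in vehicle and 209.96, 185 and 219 at 1 h (0.43, adjusted p = 0.40). The part of adipocyte transcripts in these rises was not tested. In 1 h replicate 1, the library with hepatocyte transcripts, Scd1 and Gpd1 were the highest of the 3 while Pcx and Hsd3b6 were not. With that library left out Scd1 (1.73, adjusted p = 0.023) and Pcx (2.51, adjusted p = 0.036) were called, and Gpd1 (2.56, adjusted p = 0.065) and Hsd3b6 (3.81, adjusted p = 0.062) were not. Hsd3b6 was not called either without 1 h replicate 2 (adjusted p = 0.077) or 1 h replicate 3 (adjusted p = 0.065). Gpd1 was not called without 1 h replicate 2 (adjusted p = 0.076) and was called without 1 h replicate 3 (adjusted p = 0.038).

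In the transport of bicarbonate and acid, Slc4a5 and Car8 rose. Slc4a5 encodes the electrogenic sodium bicarbonate cotransporter NBCe2 (ENSMUSG00000068323, chromosome 6, 83219828 to 83304945). It had 0, 5 and 0 counts in the vehicle libraries and 38, 42 and 57 at 1 h, or 0, 0.537 and 0 against 5.17, 4.79 and 6.14 CPM, 4.70 (SE 0.65, adjusted p = 0.0065). With so few vehicle counts the size of this rise depended on the setting and ran from 4.17 to 8.46 over the alternatives. Car8, a carbonic anhydrase relative without catalytic activity (ENSMUSG00000041261, chromosome 4, 8143362 to 8239041), had 0.465, 0.430 and 1.40 CPM in vehicle and 5.99, 6.16 and 6.46 at 1 h, 3.03 (SE 0.45, adjusted p = 0.01). Among 12 tested genes of bicarbonate transport and carbonic anhydrases these were the 2 called, and the median was 0.27. Over all tested genes 0.179% were called higher. The fit of the 6 libraries compared and DESeq2 each called 4 of the list higher and 1 lower (1.62% and 1.58% of all genes were called there). In limma-voom 0 of the list were called. Slc26a6, an anion exchanger, had 6.51, 6.02 and 10.7 CPM in vehicle and 2.31, 0.912 and 1.40 at 1 h (-2.33, adjusted p = 0.12). Slc4a1 (1.34, adjusted p = 0.13) and Car2 (1.61, adjusted p = 0.16) are red cell genes and did not pass.

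Rragd encodes RagD, a GTPase that brings mTORC1 and the transcription factor TFEB to the lysosome (ENSMUSG00000028278, chromosome 4, 32983037 to 33022180). It rose from 2.56, 5.05 and 4.71 to 30.9, 24.5 and 23.05 CPM, 2.66 (SE 0.29, adjusted p = 0.00081). The other 23 tested genes of the Rag and TFEB list did not pass, and 0 of them had an unadjusted p under 0.05. Lamtor3, part of the lysosomal Ragulator, had 0.32 (adjusted p = 0.82) and Fnip2, a folliculin partner, 0.20 (adjusted p = 0.87).

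Mapre3 encodes EB3, which binds the growing ends of microtubules (ENSMUSG00000029166, chromosome 5, 30814641 to 30866106), and rose from 2.79, 2.79 and 3.69 to 32.95, 27.03 and 26.9 CPM, 3.23 (SE 0.35, adjusted p = 0.00081). Of the other 15 microtubule plus end genes none passed, Dst (1.37, adjusted p = 0.39) and Mapre2 (0.54, adjusted p = 0.49) coming nearest. Rundc3a, a RUN domain protein (ENSMUSG00000006575, chromosome 11, 102393403 to 102402555), rose from 5.23, 4.62 and 3.94 to 23.96, 29.4 and 17.4 CPM, 2.35 (SE 0.43, adjusted p = 0.043). Rph3al encodes noc2, a partner of Rab3 and Rab27 in regulated secretion (ENSMUSG00000020847, chromosome 11, 75830999 to 75938429), and rose from 4.07, 3.76 and 5.60 to 13.6, 17.9 and 15.5 CPM, 1.81 (SE 0.32, adjusted p = 0.037). Ccdc92b, a coiled-coil gene of little studied function (ENSMUSG00000069814, chromosome 11, 74619605 to 74641516), rose from 0.349, 0.645 and 0.763 to 3.27, 4.90 and 2.58 CPM, 2.59 (SE 0.42, adjusted p = 0.019). Among the 13 tested genes of RUN domains and vesicle docking, Rundc3a was the member called (0.179% of all tested genes were called higher). Rab3d, a small GTPase of secretory granules, had -0.78 (adjusted p = 0.31).

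Further rises were in signalling genes, of which Ibtk and Pde3b changed by 1.05 and 1.17 on the log2 scale. Ibtk, named as an inhibitor of Bruton's tyrosine kinase (ENSMUSG00000035941, chromosome 9, 85687360 to 85749334), stood at 78.8, 77.1 and 104 CPM in vehicle and 174, 169.6 and 195 at 1 h, 1.05 (SE 0.17, adjusted p = 0.019). Pde3b, a phosphodiesterase that breaks down cyclic AMP (ENSMUSG00000030671, chromosome 7, 114415281 to 114539251), stood at 25.5, 26.5 and 16.8 CPM in vehicle and 62.6, 47.8 and 44.5 at 1 h, 1.17 (SE 0.21, adjusted p = 0.04). In both genes the lowest 1 h library lay above the highest vehicle library. Larger and from lower levels were the rises of Ptpn14 and Rhbdf1. Ptpn14, a phosphatase that restrains the Hippo pathway effector YAP (ENSMUSG00000026604, chromosome 1, 189728268 to 189876695), had 4.88, 1.93 and 3.56 CPM in vehicle and 25.2, 21.9 and 20.8 at 1 h, 2.71 (SE 0.45, adjusted p = 0.019). Rhbdf1, an inactive rhomboid that guides the protease ADAM17 (ENSMUSG00000020282, chromosome 11, 32209585 to 32222300), had 0.465, 0.107 and 0.509 CPM in vehicle and 1.91, 5.25 and 5.17 at 1 h, 3.50 (SE 0.65, adjusted p = 0.044), with 1 h replicate 1 well below the other 2. Neither Adam17 (-0.13, adjusted p = 0.95) nor Rhbdf2 (-0.32, adjusted p = 0.86), the iRhom more usual in blood cells, passed.

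Hrh2, the histamine H2 receptor, was the second gene called lower (ENSMUSG00000034987, chromosome 13, 54192129 to 54236180). It stood at 77.3, 79.8 and 95.9 CPM in vehicle and 38.4, 44.4 and 45.2 at 1 h, -0.98 (SE 0.16, adjusted p = 0.019), so that the highest 1 h library was well under the lowest vehicle library. Hdc, which makes histamine, had 0.24 (adjusted p = 0.94) and Hnmt, which breaks it down, -0.74 (adjusted p = 0.63). The overlapping antisense gene Gm16578 had 41 counts over the vehicle libraries and 46 over the 1 h libraries.

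The 20 genes next in order of p did not pass, with adjusted p from 0.056 to 0.086, and are given as values. With only the 6 libraries compared 19 of the 20 passed, and with DESeq2, which called 1.58% of the genes it tested, all 20 passed. The spectrin-binding protein gene Epb42 had 103, 152 and 122 CPM in vehicle and 503, 505 and 471 at 1 h (1.98). Calcrl, the receptor that pairs with RAMP proteins for CGRP and adrenomedullin, had 118, 143 and 198 CPM in vehicle and 619.7, 873 and 642 at 1 h (2.22). Cat, which encodes catalase, had 370.3, 453 and 413 CPM in vehicle and 1002, 1034 and 927 at 1 h (1.26). In all 3 genes the 1 h libraries lay above all vehicle libraries, which alone was so for 8.92% of tested genes. Il15ra, which presents interleukin 15 to NK cells, had 9.53, 12.7 and 12.5 CPM in vehicle and 32.95, 21.7 and 38.98 at 1 h (1.43), and Mlxip, a glucose-sensing partner of MLX, had 71.1, 65.9 and 77.7 CPM in vehicle and 153, 122 and 146 at 1 h (0.97). Cd300lb, an activating receptor of myeloid cells, was the 1 gene of the 20 with a value below 0: its vehicle libraries had 263, 258 and 264 CPM and its 1 h libraries 158, 163 and 163 (-0.70, SE 0.14, adjusted p = 0.076), a narrow spread in both groups. The others were S100a13 (1.96), Cystm1 (3.16), Acadsb (1.34), Gm49839, Cpne8 (1.72), Hsp90ab1, Cbr1 (1.37), Rims3 (1.56), Hectd4 (0.92), St3gal2 (0.93), Nbr1 (0.84), Nt5c2 (1.02), Ttc39a (1.82) and Sytl3 (1.04).

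Lists of blood cell markers and of general pathways gave few single calls at 1 h. Of 41 erythroid and reticulocyte genes 0 passed in edgeR, 16 had an unadjusted p under 0.05 toward higher and 0 toward lower, and in 21 the 1 h libraries lay above all vehicle libraries. Over all tested genes these shares were 4.28%, 2.7% and 8.92%. The median was 0.36. With only the 6 libraries compared 16 of the 41 passed higher (1.45% of all genes did so), and DESeq2 called 11. Epb42 (1.98, adjusted p = 0.056), Trim58, a ubiquitin ligase of maturing red cells (1.33, adjusted p = 0.086), and Gata1, the master regulator of erythroid genes (0.86, adjusted p = 0.12), had the smallest p. With the level of this list as a covariate all 26 called genes were called, among 2.67% of all genes. That level did not overlap between vehicle and 1 h, which limits what this fit can show.

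Of 30 mature neutrophil genes 0 passed in edgeR (1 was lower in DESeq2) and 9 had an unadjusted p under 0.05, all toward lower (2.7% over all genes), with a median of -0.26. G0s2, an inhibitor of lipolysis, had -1.25 (adjusted p = 0.14) and Il1b -0.73 (adjusted p = 0.29). The list's mean log2 CPM overlapped between the groups, at 7.42, 7.68 and 8.16 in vehicle and 7.31, 7.57 and 7.46 at 1 h. Of 21 tested granule genes 0 passed in edgeR (3 lower at an unadjusted p under 0.05, 1 in DESeq2), with a median of -0.39, which ran from -0.56 to 0.07 when single libraries were left out. Of 20 classical monocyte genes 0 passed in edgeR (3 lower at an unadjusted p under 0.05, 3 in DESeq2) and Ccr2, the chemokine receptor that releases them from marrow, had 839, 907 and 697 CPM in vehicle and 479.96, 541 and 540.1 at 1 h (-0.65, adjusted p = 0.20). In edgeR 0 genes passed among 22 immediate early genes (0 higher and 5 lower at an unadjusted p under 0.05), 19 genes of the integrated stress response (4 and 1), 35 interferon-stimulated genes (3 and 1), 83 ribosomal protein genes (1 and 4), 40 cell cycle genes (2 and 0), 17 NK cell genes (0 and 1) and 26 platelet genes (0 and 0). Over all genes the shares were 4.28% and 2.7%, and the counts of the cell cycle and NK cell lists are near these. Of the 83 ribosomal protein genes 61 had values below 0 and 22 above, with a median of -0.14. In 16 of them the 1 h libraries lay below all vehicle libraries and in 1 above (8.44% and 8.92% over all genes). Over the lists from immediate early to platelet genes, DESeq2 called 2 immediate early genes lower and 3 stress response genes higher, and 0 in the others. Among these Atf3, a stress-induced factor, had -1.02 (adjusted p = 0.089) and Asns, asparagine synthetase, 1.23 (adjusted p = 0.089). Of 16 core clock genes 0 passed in edgeR (1 in DESeq2) and 3 had an unadjusted p under 0.05, all toward higher (4.28% over all genes), with a median of 0.34. Beside Per1 these were Rora (0.86, adjusted p = 0.25) and Nr1d2 (0.65, adjusted p = 0.54).

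**Figure D4:**
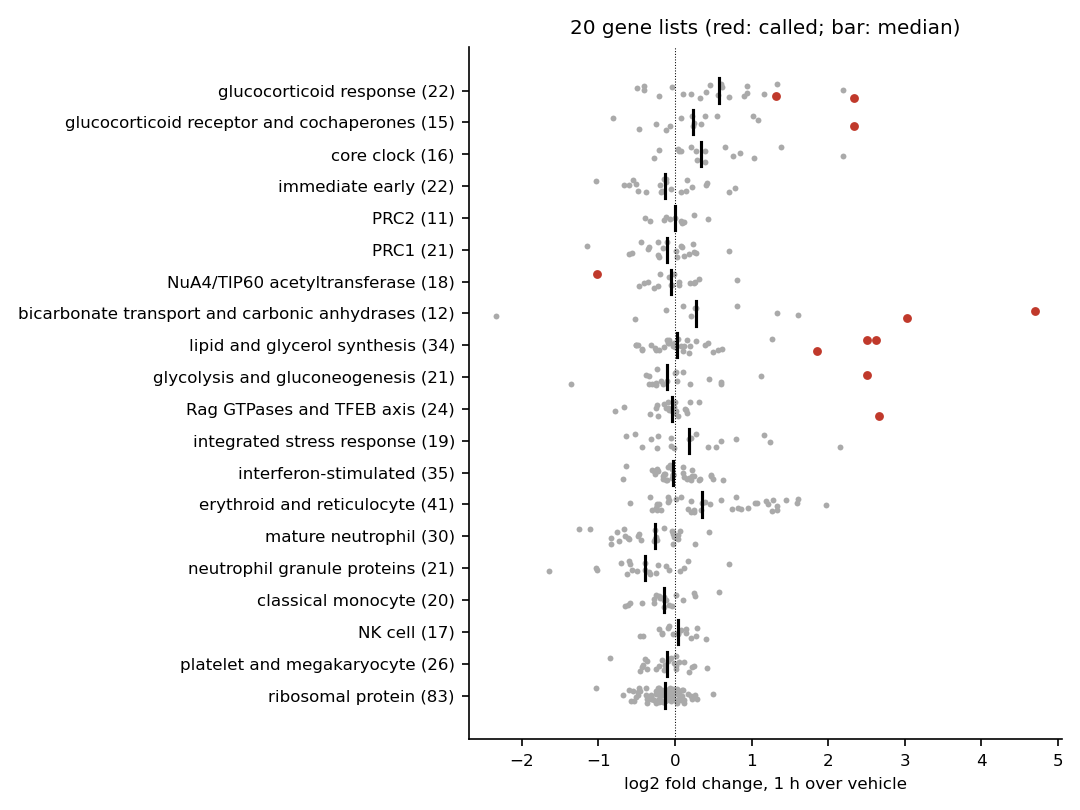
Log2 fold change of 1 h over vehicle for each tested member of 20 lists, with the number tested in brackets, called members in red and list medians as black bars. The glucocorticoid-response list has the highest median shown, 0.58, with 2 called members, and the erythroid list has a median of 0.36 with none called.

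The genes called at 1 h did not share 1 course afterwards. The 3 comparisons with vehicle use the same 3 vehicle libraries and the same estimate of spread. That favours calls at 6 h and 24 h among genes chosen at 1 h, so shares over all genes are no baseline for them. Of the 24 genes higher at 1 h, 17 were called higher at 6 h (4.06% of all genes were) and 7 at 24 h (0.105% of all genes). The 7 called higher at 24 h were Runx1t1, Mapre3, Rragd, Scd1, Slc4a5, Car8 and Hsd3b6. Direct contrasts with 1 h showed fewer differences. The 1 h libraries that chose the 26 genes also enter these contrasts, which favours lower values later among genes chosen as higher. At 6 h Rph3al alone among the 26 was called higher than at 1 h (1.59, adjusted p = 0.036, against 0.134% of all genes), with 30.8, 51.5 and 59.5 CPM. At 24 h 3 genes in all were called against 1 h (0.0224%), and all 3 were among the 26: Gm49838, Gm22146 and Irf2bp2, each lower. The 24 h libraries differed among themselves, with a mean log2 CPM of erythroid markers of 6.84, 7.36 and 8.40. Leaving out 24 h replicate 3 gave 205 calls, and leaving out replicate 1 or 2 gave 0. Few calls therefore do not show that blood at 24 h was like that at 1 h. For Runx1t1, Mapre3, Scd1, Calcoco1 and the other genes with higher values at 6 h than at 1 h, the direct contrast did not pass, Rph3al excepted. Epc1 was called lower at 6 h as well (0.785% of all genes), with 21.5, 19.9 and 16.97 CPM (-0.91, adjusted p = 0.013), whereas Hrh2 had 62.6, 55.2 and 50.8 CPM (-0.59, adjusted p = 0.052) and 89.1, 76.6 and 67.8 at 24 h.

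**Figure D5:**
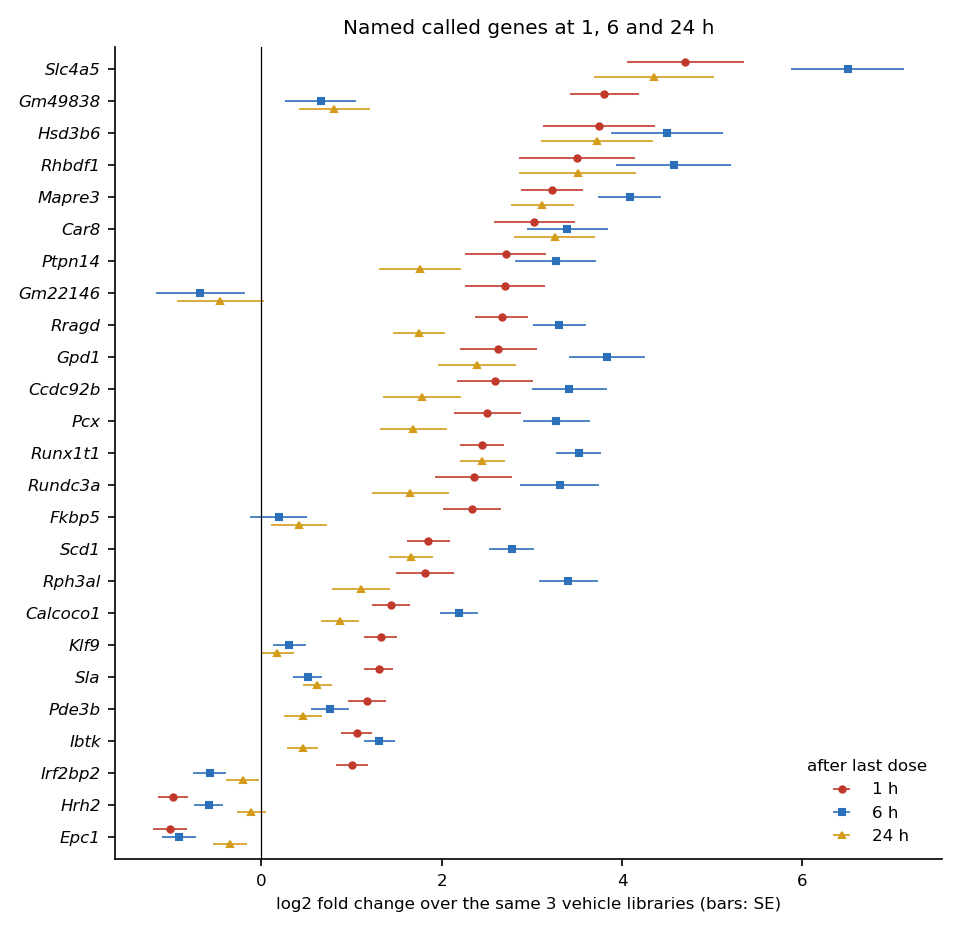
Log2 fold change over vehicle with its standard error for the called genes named in the text at 1 h (circles), 6 h (squares) and 24 h (triangles) after the last dose. For Gm49838, Gm22146, Fkbp5, Klf9 and Irf2bp2 the 6 h and 24 h values are 0.81 or less, while the 7 genes called at all 3 times keep values of 1.66 or more.

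Single libraries carried part of these calls. With 1 library left out in turn, 7 genes were called in all 12 fits: Gm49838, Runx1t1, Mapre3, Rragd, Sla, Scd1 and Slc4a5. In limma-voom Slc4a5 was not called (5.38, adjusted p = 0.12), nor were Car8, Ccdc92b, Gpd1, Hsd3b6, Rph3al, Rundc3a, Epc1 and Rhbdf1 (adjusted p from 0.051 for Epc1 to 0.27 for Rhbdf1). Among the fits with 1 library left out, Fkbp5, Klf9 and Pcx lost their call only without vehicle replicate 2, where their values were 2.30 (adjusted p = 0.071), 1.33 (adjusted p = 0.067) and 2.56 (adjusted p = 0.085). Car8 and Calcoco1 lost it in 2 of the 12 fits, Ccdc92b in 4, Gpd1, Ibtk, Gm22146 and Ptpn14 in 5, and Hrh2 and Hsd3b6 in 6. Least firm were Rph3al and Rundc3a (7), Rhbdf1 (8), Irf2bp2 and Pde3b (9) and Epc1 (10). Dropping the vehicle replicates in turn (1, 2, 3) left 15, 7 and 22 called genes, and dropping those at 1 h left 14, 12 and 14. For the 6 h libraries the counts became 26, 20 and 24, and for those at 24 h 127, 28 and 165.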

How the data were processed

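Whole blood RNA was extracted with a PAXgene kit, depleted of ribosomal RNA and sequenced as total RNA with paired reads of 150 bp, per the labels' protocols. The authors deposited whole-number read counts per mouse Ensembl gene for 12 libraries. RSEM is named without a version in the submitters' processing notes, which list a human build although the gene IDs are mouse; no source used here states the aligner, annotation or strand setting. All 12 libraries were fitted together with 4 group means by edgeR 4.0.16 (R 4.3.3) with TMM scaling, its expression filter by group (13384 of 55367 genes kept) and quasi-likelihood tests, and p-values were adjusted over all tested genes by Benjamini-Hochberg at 0.05. Counts behind low levels limit the precision of their folds. Alternatives were other scalings and filters, DESeq2 1.42.0, limma-voom (limma 3.58.1), only the 6 libraries compared, a replicate block, an erythroid covariate and leaving out each library. The fit without the 24 h libraries was added after seeing the data. Deviations of same-numbered libraries from their group means were weakly correlated: 18 correlations ran from -0.11 to 0.17, and 2 were over 0.1.

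Named genes are all called genes with a symbol other than a predicted name, predicted genes that overlap a called one, the 20 next by p, Ezh1, Ezh2, Eed and Suz12, and from each list the called members and up to 4 others with the smallest p. Of the called genes 1 is counted but not reported here. Further list members named for their role were chosen after their values were seen. The comparison and the 45 gene lists were chosen with earlier results of these data known. Gene positions are GENCODE M21 (GRCm38), promoter windows RefSeq GRCm38.p6.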

Additional observations from a re-analysis of the deposited data

Results flagged for a closer look

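For 7 of the 26 genes called at 1 h, the effect against vehicle differed between times after the last dose by a direct contrast of the treated groups in edgeR. Over all tested genes 0.359% were called lower and 0.134% higher at 6 h than at 1 h, and 0.0224% in either direction at 24 h. The 1 h libraries that chose the 26 genes also enter these contrasts, which favours lower values later among genes chosen as higher. At 6 h against 1 h the log2 difference was -3.15 for Gm49838 (adjusted p = 0.0032), -3.38 for Gm22146 (adjusted p = 0.015), -2.15 for Fkbp5 (adjusted p = 0.021), -1.58 for Irf2bp2 (adjusted p = 0.0032), -1.02 for Klf9 (adjusted p = 0.034) and -0.79 for Sla (adjusted p = 0.0498). In each of these 6 genes all 3 libraries at 6 h lay below all 3 at 1 h. That is likely for genes called lower, and its share over all tested genes was not counted. Rph3al differed the other way, by 1.59 (adjusted p = 0.036). At 24 h against 1 h the difference was -2.99 for Gm49838 (adjusted p = 0.011), -3.15 for Gm22146 (adjusted p = 0.041) and -1.21 for Irf2bp2 (adjusted p = 0.041). Gm49838 and Gm22146 lie inside Fkbp5, so their values and those of Fkbp5 are not separate observations. These calls depended on the fit. With single libraries left out, Gm49838 and Irf2bp2 were called at 6 h against 1 h in all 12 fits, Gm22146 in 11, Fkbp5 in 8, Klf9 in 6, and Sla and Rph3al in 3. At 24 h against 1 h Gm49838 was called in 9 of the 12, Gm22146 in 5 and Irf2bp2 in 4. With the erythroid marker level as a covariate 3 of the 10 differences were called: Gm49838 at both times (-3.51 and -2.85) and Irf2bp2 at 24 h (-1.34). Without a call there, the difference at 6 h was -2.15 for Fkbp5 (adjusted p = 0.15) and -1.16 for Klf9 (adjusted p = 0.17). The erythroid marker level also differed between 1 h and 6 h, and its part in these differences was not tested.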

How the results depend on the processing

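At 1 h 26 genes were called. The number was 65 with library totals alone, 288 without a filter on low counts, 162 with DESeq2 (152 without independent filtering), 17 with limma-voom, 204 with only the 6 libraries compared, 357 with the erythroid covariate and 244 without the 24 h libraries, the last chosen after seeing the data. Leaving out single libraries gave 7 to 165. At 6 h against 1 h 66 genes were called, and 674 with library totals, 1227 without a filter, 851 with DESeq2 (742 without independent filtering), 1 with the erythroid covariate, 1708 without the 24 h libraries, and 4 to 1285 with single libraries left out. At 24 h against 1 h 3 genes were called, and 2 with library totals, 107 without a filter, 27 with DESeq2 under either filtering, 5 with limma-voom, 2 with the erythroid covariate, and 0 to 205 with single libraries left out. The causes were not tested.

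The labels do not say that replicate numbers pair the libraries, and the correlations of same-numbered libraries cannot exclude it. With a replicate block the counts were 38 at 1 h, 68 at 6 h against 1 h and 1 at 24 h against 1 h.

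Over the called genes and their alternatives, 508 values kept direction and call and 115 kept direction and lost the call. Among the other named genes 383 values kept direction and call, and 190 kept direction and gained a call, 189 of them in the 20 next by p and 1 in Ezh2 (-1.07 with the erythroid covariate). The remaining 3 turned sign: Eed was -0.16 with the erythroid covariate, and Ezh1 was 0.08 without vehicle replicate 3 and 0.10 without 1 h replicate 1 (over single libraries left out it ran from -0.25 to 0.10). Depth limits the folds of Slc4a5, Car8, Gpd1, Ccdc92b and Rhbdf1, which have few vehicle counts.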

Other observations

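The fit of the 6 libraries compared and DESeq2 both called 97 genes that the fit of 12 libraries did not, 88 higher and 9 lower. Of the 88 higher genes 11 belong to the erythroid list, which holds 41 of the 13384 tested genes. The 9 lower genes were looked up after their values were seen. Hmmr, a hyaluronan receptor that also binds the mitotic spindle, had 12.7, 11.9 and 12.9 CPM in vehicle and 5.04, 4.11 and 3.45 at 1 h (-1.57, adjusted p = 0.11 over 12 libraries in edgeR). Dlgap5, another spindle protein, had 8.83, 11.6 and 7.51 CPM in vehicle and 4.22, 3.31 and 3.66 at 1 h (-1.32, adjusted p = 0.14). Neither is on the cell cycle list, of whose 40 genes the fit of the 6 libraries called 3 higher and 0 lower, and DESeq2 0. Over all genes 1.45% were called higher in that fit of 6 libraries. The list's median over the 12 libraries was -0.10. Osbpl7, a lipid-binding protein, had 8.95, 11.6 and 8.91 CPM and 4.08, 3.08 and 3.66 CPM (-1.44, adjusted p = 0.12). In these 3 genes the 1 h libraries lay below all vehicle libraries, which alone was so for 8.44% of tested genes. Ccr2, Cd300lb and Slc26a6 are described above, and the remaining 3 have predicted or pseudogene names.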
